A study of Eisenia fetida with 15 samples.

Results

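The proteasome and ubiquitin system of the earthworm *Eisenia fetida* was described across 15 RNA-seq libraries. Its members were the unigenes, contigs of a de novo transcriptome assembly, whose best protein match was named proteasome, 26S protease, ubiquitin, cullin, F-box or tripartite motif. Names with NADH-ubiquinone or apoptosis were left out. The rule found 356 members among 241846 unigenes. They matched 268 protein entries, and 229 of these entries were matched by 1 unigene only.

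Ubiquitin is a small protein that cells attach to other proteins as a mark. An activating enzyme (E1) passes it to a conjugating enzyme (E2), and a ligase (E3) such as a cullin complex with an F-box protein, or a tripartite motif protein, chooses the target. Chains of ubiquitin lead the target to the 26S proteasome, in which a 19S regulatory particle unfolds it and a 20S core of alpha and beta subunits cuts it, while deubiquitinases take the mark off again. The system is present in every animal cell and removes damaged, misfolded and short-lived regulatory proteins.

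The study kept adult worms in soil with a nominal 2.4 mg/kg of lindane, an organochlorine insecticide, that was spiked fresh or left to age for 30 d, and sampled them after 7 d or 28 d. The RNA was taken from whole-body sections. Each of 5 conditions had 3 libraries, called a triplet here, and no label says whether the 3 came from separate worms. The labels name the triplets in 2 ways that conflict. By the code in the column headers, 0d-7d and 0d-28d are 7 d and 28 d in fresh soil, 30d-7d and 30d-28d are 7 d and 28 d in aged soil, and control is the fifth triplet, for which the code gives no times. By the treatment text, the libraries coded 0d-7d are unexposed worms at 0 d, those coded 0d-28d had 7 d in fresh soil, those coded 30d-7d had 28 d in fresh soil, those coded 30d-28d had 7 d in aged soil and those coded control had 28 d in aged soil. The codes are used below as names, and a direction relative to "control" means unexposed worms only if the code is right.

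The libraries held 13182058 to 28022746 reads, and the members took 0.509% to 1.42% of them. Levels are given in 2 units. FPKM, deposited by the authors, is per length and serves to compare unigenes. CPM, a read count scaled to the reads of its library in tested unigenes and then by TMM, serves to compare libraries, because the FPKM of short unigenes stood at 1.38 times the plain reads per length and depth in control library 1 and at 1.97 times in 30d-7d library 1. Markers of muscle, gut, blood, coelomocytes, germ line and nerve were all present.

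One library stood apart and touches most results. In 0d-28d library 3, germ line and sperm markers took 0.433% of the reads against 0.0188% to 0.0661% in the other 14. There, 50 of 55 listed unigenes had reads. Of the 41 tested, 22 were highest there, as were 13.8% of all tested unigenes. Of the same 41, 26 lay over 2 times their median elsewhere, as did 20.3% of all unigenes with such a median above 0. A single PIWI1 unigene, First_Contig345, had 1820 CPM there against 2.80 to 29.7 CPM elsewhere. Other listed unigenes did not stand out there. Nanos (contig_54689) had 0.703 CPM against 0.125 to 0.880 CPM, and PIWIa (First_Contig2169) 25.1 CPM against 3.35 to 29.0 CPM. The sperm-associated antigen 6 contig_589 had 7.38 CPM against 4.36 to 77.4 CPM. Blood markers, all of them globins, took 0.00322% there against 0.301% to 2.03%, with 10 of 29 at 0. Coelomocyte markers took 0.0507% against 0.208% to 1.15%, and gut markers 0.165% within a range of 0.0863% to 6.66%. Unigenes too rare to be tested took 9.19% of its reads against 1.13% to 2.19% elsewhere. For the contrasts with 0d-28d, the counts at an unadjusted p under 0.05 and the medians are given with and without it. RNA here comes from mixed tissue, so fewer cells of a type and less RNA per cell cannot be told apart.

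**Figure D1:**
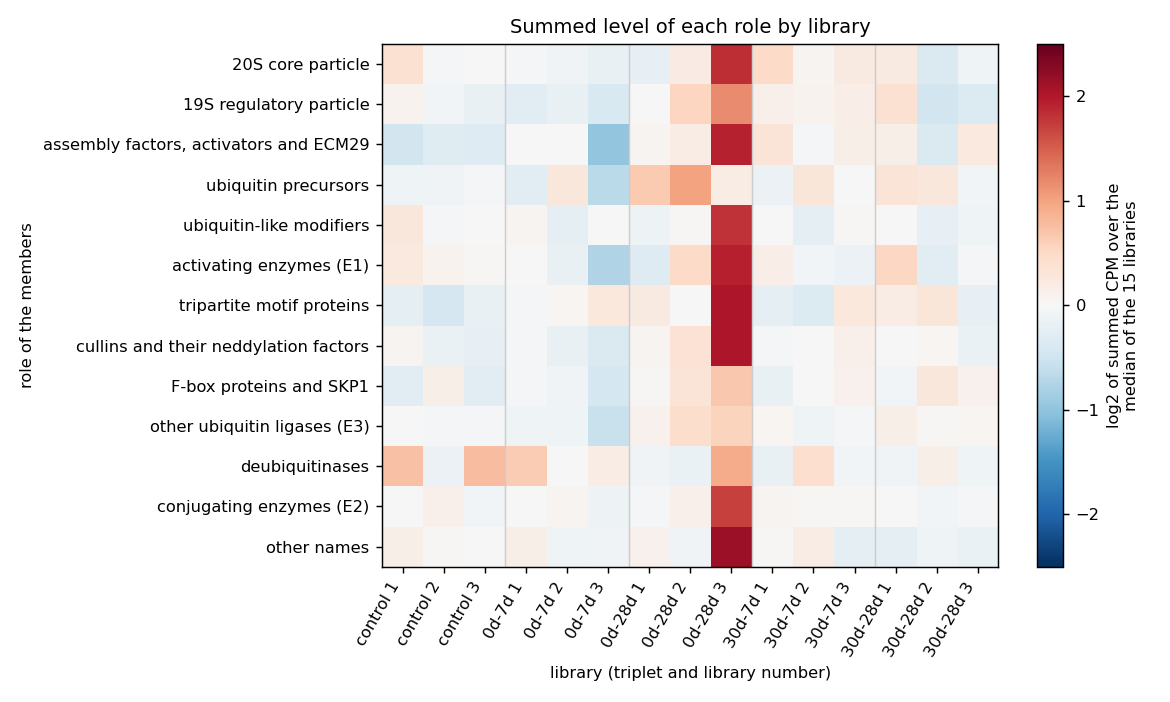
Summed level of each role (rows) in each library (columns), as the log2 of the summed CPM over the median of the 15 libraries. In 0d-28d library 3 the 20S core sum was 1472 CPM, against 316 to 572 CPM in the other libraries, while the ubiquitin precursors peaked at 10886 CPM in 0d-28d library 2.

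Of the 356 members, 232 passed the filter on low counts and were tested, a share that differed widely by role. All 10 ubiquitin precursors were tested, as were 32 of 40 tripartite motif proteins, 57 of 77 other ligases, 50 of 74 deubiquitinases, 21 of 27 F-box proteins with SKP1, 14 of 17 cullins and neddylation factors and 11 of 16 conjugating enzymes. Only 16 of 37 unigenes of the 20S core, 6 of 33 of the 19S particle and 1 of 6 activating enzymes were. The 27 untested 19S unigenes had at most 0.216 FPKM on average and at most 67 reads over all 15 libraries. None of the 124 untested members was without reads. Of the members, 32 had their best match in a eukaryote that is not an animal, and 6 of those were tested. The median level was 0.138 FPKM for these 32 and 1.92 FPKM for the 324 with an animal match.

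The 20S core, the cutting chamber, was represented by 12 unigenes between 17.4 and 50.8 FPKM and by 4 between 1.78 and 5.57 FPKM. Their names say alpha or beta but, with 2 low exceptions, carry no subunit number. The most abundant were an alpha subunit (contig_58882, 50.8 FPKM), another alpha subunit (contig_20231, 50.3 FPKM) and a beta subunit (contig_32919, 49.5 FPKM). For contig_32919 the libraries in order 1 to 3 gave 85.6, 73.7 and 67.1 CPM in control, 66.4, 73.1 and 73.9 for 0d-7d, 69.7, 79.6 and 303 in 0d-28d, 102, 75.6 and 88.0 for 30d-7d, and 85.7, 67.9 and 61.4 in 30d-28d. One library was about 4 times the others, and all triplets overlapped apart from 30d-7d, whose lowest library stood above the highest of 0d-7d. The alpha subunit contig_58882 had 249 CPM in 0d-28d library 3 and 43.5 to 85.5 CPM in the other 14. Over these 14 libraries the median of contig_20231 was 26.9 CPM, against 180.3 CPM in 0d-28d library 3.

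Summed over all core unigenes, the level was 448 ± 74.8 CPM in control (SD, n = 3), 379 ± 16.3 for 0d-7d, 765 ± 615 in 0d-28d, 492 ± 73.4 for 30d-7d and 390.3 ± 80.6 in 30d-28d. The wide SD of 0d-28d came from 356, 468 and 1472 CPM in its libraries. Without library 3, all 14 sums lay between 316 and 572 CPM, a span of 1.81 times. Of the 16 tested core unigenes, 14 had their highest level in 0d-28d library 3, where the median core unigene stood at 2.85 times its median over the other 14. The exceptions were contig_31910, named alpha type 1, with 1.05 CPM there and up to 3.36 CPM in 0d-7d library 1, and contig_17519, named beta type-3, with 1.41 CPM there and 3.61 CPM in 0d-7d library 2. One abundant beta subunit, contig_50968, was low in a single other library, with 1.15 CPM in 30d-7d library 2 against 5.73 to 26.5 CPM elsewhere.

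**Figure D2:**
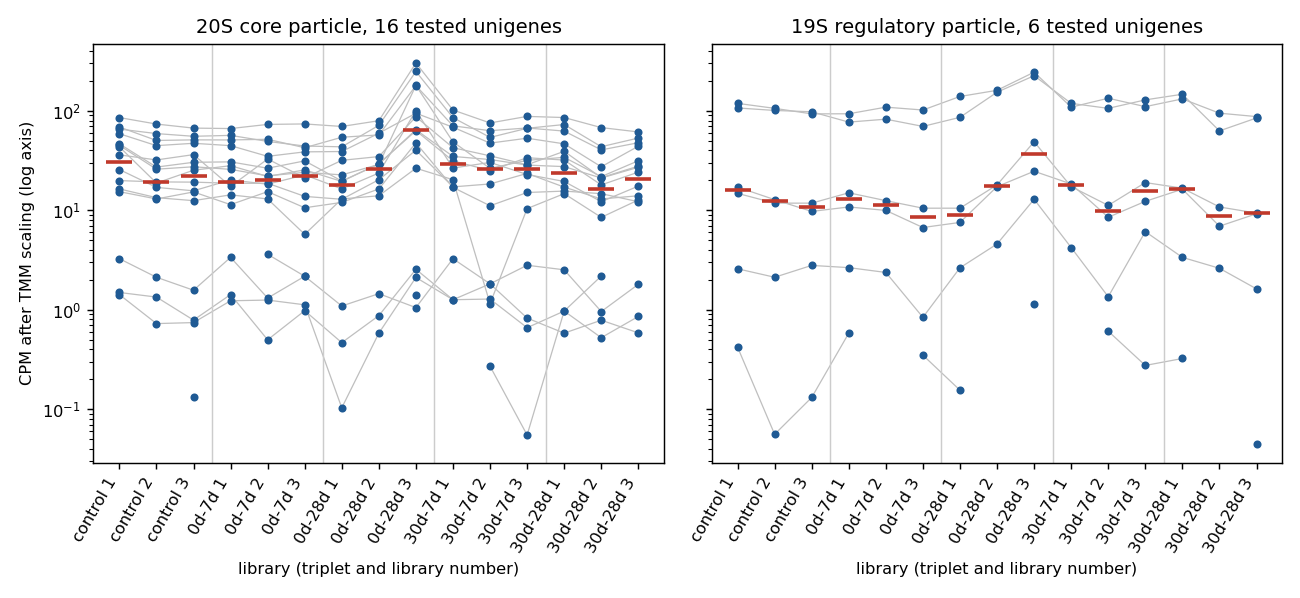
CPM after TMM scaling (log axis) of the 16 tested 20S core unigenes (left) and the 6 tested 19S unigenes (right) in the 15 libraries. Each line joins the points of 1 unigene, a value of 0 is not drawn, and red bars mark the median over unigenes. Of the core unigenes 14 of 16, and of the 19S unigenes 6 of 6, were highest in 0d-28d library 3, where contig_32919 reached 303 CPM.

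The 19S particle was represented by 6 tested unigenes. The most abundant, contig_5013, matched a subunit 4-like protein of *Eisenia fetida* itself, a name that in other animals belongs to a receptor for ubiquitin chains, and averaged 52 FPKM. It gave 119, 106 and 93.3 CPM in control, 93.5, 109 and 102 for 0d-7d, 139.6, 161 and 245 in 0d-28d, 109, 134 and 110.3 for 30d-7d, and 132, 94.8 and 87.6 in 30d-28d. All 3 libraries of 0d-28d lay above every other library for this unigene, and library 3 was highest. The edgeR F test over the 5 triplets gave it an adjusted p of 0.832. Another non-ATPase subunit, contig_6784, ranged from 62.9 to 154 CPM in 14 libraries and had 226 CPM in 0d-28d library 3. A unigene named proteasome 26S subunit (contig_54406, 16.6 FPKM) stood at 4.92 times its median elsewhere in that library. Subunit 7 (First_Contig4832), part of the lid, had 48.9 CPM there against 9.37 to 19 CPM. The only tested unigene of the ATPase ring, contig_129534 (subunit 6b), averaged 0.974 FPKM. All 6 tested 19S unigenes were highest in 0d-28d library 3, at 2.25 to 7.98 times their median elsewhere.

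Factors that build or open the proteasome followed the same library. Assembly chaperone 2 (contig_45301, 17.2 FPKM), which helps to join alpha subunits into a ring, had 78.0 CPM in 0d-28d library 3 and 8.73 to 23.7 CPM in the other 14. Activator complex subunit 4 (contig_41598, 4.15 FPKM), the large cap known in mammals as PA200, had 99.9 CPM there and 14.5 to 37.7 CPM elsewhere. The 3 tested ECM29-like unigenes, named for a yeast protein that holds core and regulatory particle together, were also highest there, at up to 2.55, 3.08 and 1.58 CPM.

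Ubiquitin itself was by far the most abundant product of the system and did not follow that library. The polyubiquitin unigene First_Contig4706 averaged 6066 FPKM, the highest of all members, and polyubiquitin genes encode several ubiquitin units in a row. It gave 2462, 2763 and 2294 CPM in control, 2342, 3678 and 1814 for 0d-7d, 5155, 6155 and 3184 in 0d-28d, 2250, 3855 and 2903 for 30d-7d, and 3072, 3506 and 2732 in 30d-28d. Libraries 1 and 2 of 0d-28d were the highest of the 15, and library 3 lay inside the range of the others. The summed precursors stood at 5181 ± 134 CPM in control (SD, n = 3), 4871 ± 1653 for 0d-7d, 8557 ± 2342 in 0d-28d, 5680 ± 902 for 30d-7d and 6217 ± 898 in 30d-28d. In 0d-28d libraries 1 and 2, gut markers took 6.66% and 2.59% of the reads and the precursor sums were 8583 and 10886 CPM. In 30d-28d library 1 gut markers took 4.13% (6844 CPM), and elsewhere at most 3.23% (30d-7d library 3, 5445 CPM). Their lowest share, 0.0863% in 30d-7d library 2, went with 6676 CPM. The part of gut markers in the ubiquitin levels was not tested.

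Of the 10 precursors, 8 were above 0 in log2 change for 0d-28d against 0d-7d, with a median of 0.72, where 50.4% of all unigenes were above 0. Of the 10, 3 were higher at an unadjusted p under 0.05, as were 5.84% of all unigenes. With 0d-28d library 3 left out 8 were above 0 (45.2% of all unigenes), with a median of 0.75, and 4 were higher at that p (2.98% of all unigenes). None passed the threshold in either fit, with a lowest adjusted p of 0.862 among them in the edgeR F test. First_Contig4706, contig_236409, contig_241959 and contig_174850, a ubiquitin fused to a ribosomal protein, moved in near parallel over the libraries. Reads of near-identical ubiquitin repeats could be shared between such contigs, and how the authors counted them is not given in the sources used here, so their single values are uncertain. A further polyubiquitin, contig_288224, had 204, 136 and 157 CPM in 30d-28d and 82.1, 139 and 83.1 CPM in 0d-7d, with overlap (log2 difference 0.71, SE 0.357, edgeR adjusted p = 0.885). The precursor with the widest span was contig_6339, whose best match lies in a protist. Its 15 values ran from 0 in 0d-7d library 3 to 68.3 CPM in 0d-7d library 2, so 1 triplet held both ends.

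**Figure D3:**
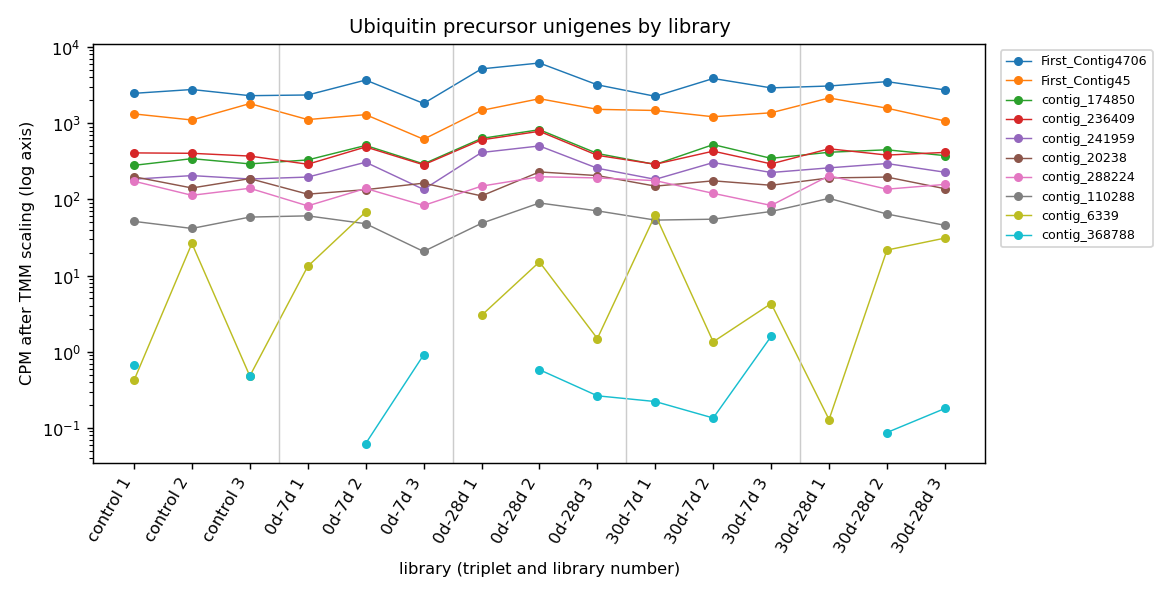
CPM after TMM scaling (log axis) of the 10 ubiquitin precursor unigenes in the 15 libraries. Each line joins the points of 1 unigene and a value of 0 is not drawn. First_Contig4706 lies on top, between 1814 and 6155 CPM, and contig_6339 between 0 and 68.3 CPM.

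The entry enzyme of the cascade had a single tested unigene, ubiquitin-like modifier-activating enzyme 1 (contig_3998, 30.8 FPKM), the main E1 for ubiquitin in animals. It stood at 566 CPM in 0d-28d library 3 and at 88.2 to 210.1 CPM in the other 14, where the median was 145 CPM. Among the modifiers related to ubiquitin, SUMO (small ubiquitin-related modifier) was the most abundant, with contig_9599 at 101 FPKM. This unigene had 122 CPM in 0d-28d library 3 and 26.7 to 44.0 CPM elsewhere. A longer SUMO contig, contig_1765, had 105 CPM there and 9.89 to 14.6 CPM elsewhere. ATG12 (contig_52043), a ubiquitin-like protein of autophagy, had 6.94 CPM there, inside the 3.20 to 7.97 CPM of the others.

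Conjugating enzymes averaged at most 23.8 FPKM. The highest mean, taken over all 15 libraries, was that of E2 Q2 (contig_44013), with 188 CPM in 0d-28d library 3 and 12.3 to 23.7 CPM in the others. E2 C (contig_60954), which works with the anaphase-promoting complex in cell division, had 75.6 CPM there and 16.5 to 32.3 CPM elsewhere. Ubiquitin-fold modifier-conjugating enzyme 1 (contig_10199) and E2A (contig_71906), which in other animals acts in DNA repair, stood there at 5.62 and 6.33 CPM, below their medians of 8.08 and 11.8 CPM in the others. The summed level of the conjugating enzymes lay between 105 and 126 CPM over the other 14 libraries.

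Cullins form the backbone of the largest ligase family, and DCN proteins help to attach the activating modifier NEDD8 to them. A DCN unigene, contig_135351 (defective in cullin neddylation protein, 12.3 FPKM), gave 14.4, 9.42 and 8.73 CPM in control, 12.3, 10.2 and 7.97 for 0d-7d, 10.1, 14.4 and 329 in 0d-28d, 12.3, 10.7 and 9.73 for 30d-7d, and 9.69, 9.32 and 6.71 in 30d-28d. A single library carried the difference, and the other 14 lay between 6.71 and 14.4 CPM. Its log2 change in 0d-28d against control was 3.44 (SE 1.03, edgeR adjusted p = 0.591) with that library and 0.14 without it. Another DCN unigene, contig_18020 (10.1 FPKM), ranged only from 15.6 to 29.6 CPM over all 15 libraries, and the most abundant one, contig_51506 (13.2 FPKM), had 23.2 CPM in 0d-28d library 3 and 18.1 to 59.0 CPM elsewhere. Among the cullins, cullin-5 contigs contig_106477 and contig_106476, named for their wide range, had 15.6 and 11 CPM in that library against at most 2.86 and 3.12 CPM elsewhere. Of the 14 tested unigenes of this role, 5 were highest there, as were 13.8% of all tested unigenes. The median of the role stood at 1.68 times its level elsewhere. Cullin 1 (contig_68372) had 10.5 CPM there and 5.45 to 12 CPM elsewhere. Members named cullin-5 share 1 protein entry over 3 contigs.

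F-box proteins carry the target to a cullin ligase. F-box and leucine-rich repeat protein 5 (contig_16495, 16.5 FPKM), an iron-sensing adaptor in mammals, lay between 72.9 and 149 CPM, with the highest value in 0d-28d library 3. F-box/SPRY domain-containing protein 1 (contig_98674) spanned 6.52 to 11.4 CPM and F-box/LRR-repeat protein (contig_7794) 4.24 to 34.4 CPM. Of the 21 tested unigenes of this role, 9 were highest in 0d-28d library 3, as were 13.8% of all tested unigenes. There, 8 of the 21 lay over 2 times their median elsewhere, as did 20.3% of all unigenes with such a median above 0.

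Tripartite motif proteins, ligases with a RING finger, had the highest median SD within triplets of the roles. It was 1.35 on the log2 scale over 32 unigenes, against 0.54 for the 20S core, 0.39 for the ubiquitin precursors and 0.96 for all 101090 unigenes tested. Tripartite motif-containing protein 45 (contig_202366, 14.7 FPKM) had 937 CPM in 0d-28d library 3 and 0.349 to 8.04 CPM in the other 14. Another contig with the same protein name, contig_19112, showed the reverse order in that triplet, with 39.4, 40.5 and 0.0879 CPM in 0d-28d libraries 1 to 3. It had no read in control library 1 and 30d-7d library 2, and reached 14.3 CPM in control and 29.1 CPM in 30d-7d. Both abundant unigenes named protein 56 were lowest in 0d-28d library 3. contig_52636 (24.5 FPKM) had 34.8 CPM there and up to 123 CPM in 30d-28d library 1, and contig_67 (14.2 FPKM) had 42.4 CPM there and up to 127 CPM. The 2 oyster entries for proteins 45 and 56 with most unigenes were matched by 13 and 5 of them, and whether these are separate genes was not tested.

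Other ligases numbered 57 tested unigenes, of which 15 were highest in 0d-28d library 3, as were 13.8% of all tested unigenes. The most abundant were a mib1 contig (contig_10060, 19.2 FPKM), named for the mind bomb ligases that act on Notch ligands in flies and vertebrates, TRAF7 (contig_45440, 16.7 FPKM) and contig_8437, named putative ubiquitin protein ligase (16.6 FPKM). contig_10060 had its lowest level, 0.967 CPM, in 0d-28d library 3 and its highest, 8.14 CPM, in control library 1. TRAF7 and contig_8437 had their highest there, at 21.6 and 67.8 CPM. Named after its values were seen, the steadiest of the 83 tested members with a mean of at least 10 CPM was the ligase MIB1 (contig_68425), which spanned 15.5 to 25.3 CPM over the 15 libraries.

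Deubiquitinases included 50 tested unigenes with a median SD within triplets of 1.05 on the log2 scale. The most abundant was contig_12473 (ubiquitin carboxyl-terminal hydrolase, 28.6 FPKM), with 126 CPM in 0d-28d library 3 and 28.7 to 53.0 CPM elsewhere. contig_111554 (13.4 FPKM) had no read in that library and 22.3 CPM in control library 1, and contig_31741 (12.7 FPKM) had 0.264 CPM there and 8.08 CPM in control library 1. USP48 (contig_71299) had 34.2 CPM in 0d-28d library 3 and at most 2.18 CPM elsewhere. Ubiquitinyl hydrolase 1 (contig_72893) ranged from 1.02 CPM in 0d-28d library 2 to 45.5 CPM in control library 3. Of the 2 unigenes outside these roles, contig_48066 (putative ubiquitin regulatory protein) had 116 CPM in 0d-28d library 3 against 20.5 to 27.2 CPM, and contig_93695 had 28.9 CPM against 4.67 to 12.2 CPM.

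In all, 79 of 232 tested members (34.1%) were highest in 0d-28d library 3, where 13.8% of all tested unigenes were. By role these were 14 of 16 in the 20S core, 6 of 6 in the 19S particle and 5 of 5 associated factors, but 0 of 10 ubiquitin precursors and 2 of 32 tripartite motif proteins. Of the 225 members with a median above 0 elsewhere, 13 lay over 8 times that median there (5.78%, against 4.48% of all unigenes) and 16 lay under 0.125 times that median (7.11%, against 12.2% of all unigenes). At the other end, 57 members (24.6%) were lowest in 0d-7d library 3, where 14% of all unigenes were. That library had the highest share of muscle markers, 1.12% against 0.141% to 1.02% in the others, and of blood markers, 2.03%. The part of these markers in the members' levels was not tested.

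**Figure D4:**
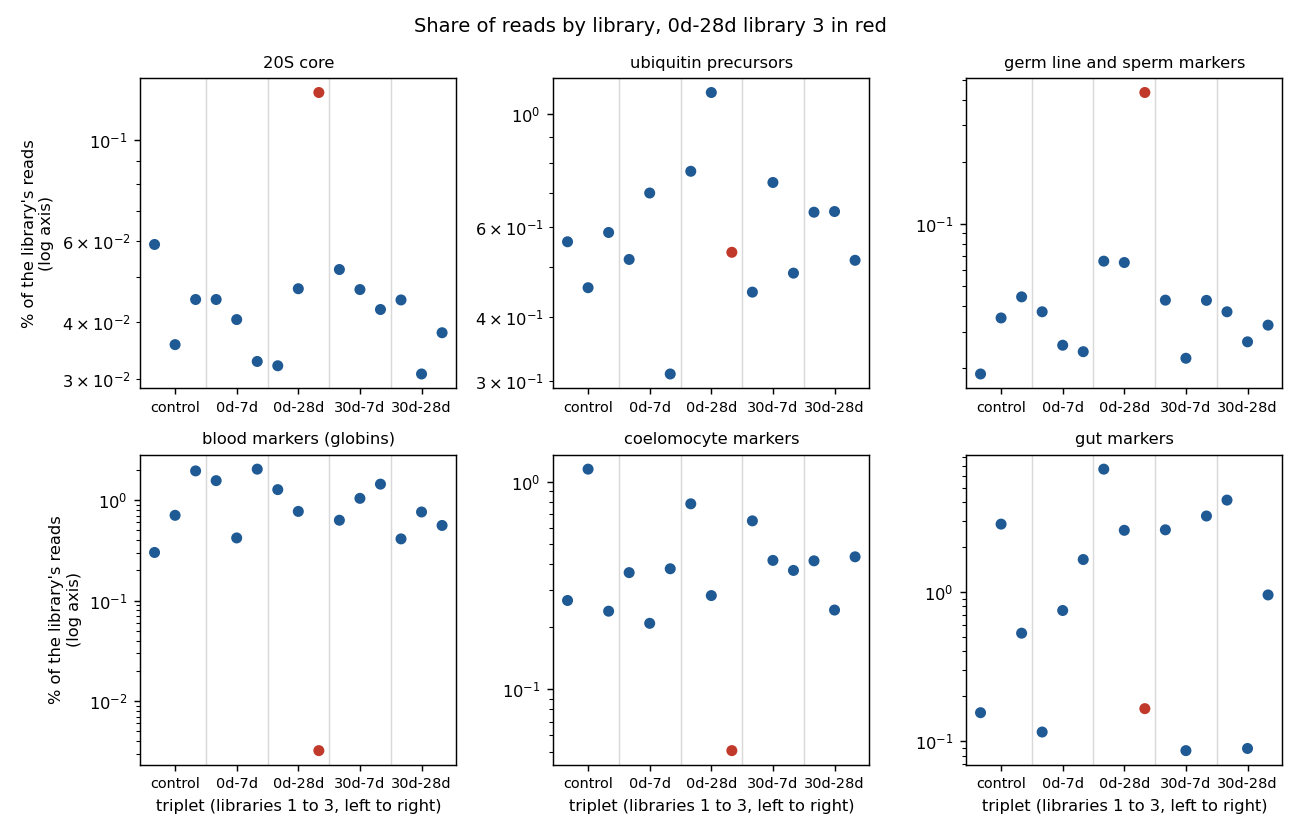
Share of each library's reads (%, log axis) taken by the 20S core, the ubiquitin precursors and 4 lists of cell type markers, with libraries 1 to 3 of each triplet from left to right and 0d-28d library 3 in red. The 20S core took 0.127% of the reads there and at most 0.0590% elsewhere, and germ line markers 0.433% against at most 0.0661%.

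Which members moved with the core was described by Pearson's r over the 15 libraries with the mean log2(CPM + 1) of the 16 core unigenes, which share libraries and scaling. The median r was 0.79 for the 19S particle, 0.71 for assembly factors, activators and ECM29, 0.90 for the single E1 and 0.47 for conjugating enzymes. It was 0.01 for ubiquitin precursors, -0.09 for deubiquitinases and -0.21 for tripartite motif proteins, while all tested unigenes had -0.05. Over the other 14 libraries the 19S median was 0.55, the assembly factors, activators and ECM29 had 0.19, the E1 had 0.60, and the conjugating enzymes had -0.02. Single core unigenes correlated with each other at a median of 0.67 over 120 pairs, and at 0.47 without that library.

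Outside the system, the named unigenes most like the core were a B56 regulatory subunit of protein phosphatase 2A (contig_125058, r = 0.953), a DEAD box RNA helicase (contig_13620, r = 0.941), deoxyhypusine hydroxylase (contig_162532, r = 0.930), the U6 snRNA-binding LSm8 (contig_176655, r = 0.927), contig_259267, whose name is a note on a chromosome fusion (r = 0.906), and a casein kinase I (contig_28161, r = 0.906). They were the top 6 of 3314 candidates over the 15 libraries. Over the other 14 libraries their r lay between 0.451 and 0.787. Each had its highest level in 0d-28d library 3, such as 221 CPM against 17.0 to 42.1 CPM for the helicase.

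The question of the design, whether time in lindane soil or aging of the soil changed these transcripts, was tested in 1 edgeR fit over all 15 libraries. In the F test over the 5 triplets, which does not depend on the naming, 0 of 232 members passed an adjusted p of 0.05, as did 0.000989% of all unigenes (1 unigene, not a member). The lowest adjusted p of a member was 0.708. At an unadjusted p under 0.05 there were 23 members, 9.91% of those tested, against 6.07% of all unigenes. Without 0d-28d library 3 there were 13 of 246, against 4.41% of all unigenes. Leaving out 30d-28d library 1 gave 14 of 245 members (5.84% of all unigenes), and leaving out 0d-28d library 1 gave 39 of 246 (6.73%).

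No pairwise contrast called a member either, by edgeR quasi-likelihood tests with Benjamini-Hochberg adjustment. Of all unigenes, 0.000989% passed in each of the 4 contrasts with control and 0% in each of the other 6. The contrasts share triplets, so their counts are not independent of each other. Against control, 0d-7d had 85 of 232 members above 0 with a median log2 change of -0.18, against 47.7% of all unigenes above 0 and a median of -0.04. For 0d-28d it was 152 members and 0.34, against 50% and 0.00. For 30d-7d it was 117 members and 0.01, against 48.2% and -0.03, and for 30d-28d 109 members and -0.05, against 47.4% and -0.04.

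At an unadjusted p under 0.05 there were 7 members for 0d-7d against control (4.74% of all unigenes), 37 in 0d-28d (8.35%), 11 for 30d-7d (3.5%) and 9 in 30d-28d (4.31%). The 37 in 0d-28d were 29 higher (4.73% of all unigenes) and 8 lower (3.61%). Without 0d-28d library 3 there were 12 higher (2.63% of all unigenes) and 11 lower (3.15%) of 246, and the median log2 change was 0.00 for the members and -0.12 for all unigenes. The 37 became 23 without control library 1 (5.45% of all unigenes) and 21 without control library 3 (6.02%). The 11 for 30d-7d ran from 4 without 30d-7d library 3 (2.78% of all unigenes) to 18 without control library 2 (4.23%). They were 7 without control library 1 (3.04%) and 6 without 30d-7d library 1 (3.61%). The 9 for 30d-28d ran from 5 without 30d-28d library 3 (3.89% of all unigenes) to 15 without control library 2 (5.04%).

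Between the other triplets, aged against fresh soil by the code gave 127 members above 0 and a median of 0.09 for 30d-7d against 0d-7d, where 49.8% of all unigenes were above 0. It gave 82 members and -0.23 for 30d-28d against 0d-28d, where 48.2% of all unigenes were. Longer against shorter exposure gave 150 members and 0.42 for 0d-28d against 0d-7d (50.4% of all unigenes) and 121 members and 0.03 for 30d-28d against 30d-7d (49.2%). The remaining contrasts gave 126 members and 0.06 for 30d-28d against 0d-7d (48.9%) and 69 members and -0.33 for 30d-7d against 0d-28d (47.4%).

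The contrasts that hold 0d-28d had the most members at an unadjusted p under 0.05. There were 51 in 0d-28d against 0d-7d, where 9.09% of all unigenes were, with 45 higher (5.84%) and 6 lower (3.25%). In 30d-28d against 0d-28d there were 28 (6.29%), with 3 higher (2.13%) and 25 lower (4.15%). In 30d-7d against 0d-28d there were 24 (6.28%), with 3 higher (2.35%) and 21 lower (3.93%). The others had 8 in 30d-7d against 0d-7d (4.21%), 5 in 30d-28d against 30d-7d (3.09%) and 6 in 30d-28d against 0d-7d (5.32%). The last 2 counts had libraries that moved them too. In 30d-28d against 30d-7d there were 8 without 0d-28d library 3, against 3.36% of all unigenes. This count was 3 without 30d-7d library 3 (2.92%) or without 30d-28d library 2 (2.46%). In 30d-28d against 0d-7d there were 10 without 0d-7d library 1 (5.29%) and 15 without 0d-7d library 2 (6.54%).

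More than 1 library moved the larger counts. Without 0d-28d library 3, 0d-28d against 0d-7d had 11 higher (2.98% of all unigenes) and 9 lower (2.96%), with a median log2 change of 0.05 over 246 members and of -0.10 over all unigenes. The 51 also became 19 without 0d-7d library 3, against 5.69% of all unigenes, and 33 without 0d-7d library 1, against 7.12%. In 30d-28d against 0d-28d the split without 0d-28d library 3 turned to 9 higher (2.13% of all unigenes) and 3 lower (1.57%), with a median of 0.01. The 28 became 12 without 30d-28d library 2 (4.55% of all unigenes) or library 3 (5.15%), and 50 without 0d-28d library 1 (7.48%). In 30d-7d against 0d-28d the split became 7 higher (2.40% of all unigenes) and 8 lower (1.94%) without 0d-28d library 3, with a median of -0.03. The 24 became 12 without 30d-7d library 3, against 4.82% of all unigenes, and 36 without 0d-28d library 1, against 7.15%.

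The 20S core went with these counts. In 0d-28d against 0d-7d, 13 of 16 core unigenes were above 0, with a median of 0.70, and all 6 of the 19S particle were, with a median of 0.93. Without 0d-28d library 3 the core had 8 of 16 above 0 and a median of -0.02, and the 19S particle 6 of 7 and a median of 0.52. Against control, the core gave -0.23 for 0d-7d, 0.46 in 0d-28d, 0.13 for 30d-7d and -0.24 in 30d-28d, and 0d-28d gave -0.19 without that library. The core was above 0 for 13 of 16 unigenes in 30d-7d against control and for 1 of 16 in 30d-28d against control, and neither contrast had a core unigene at an unadjusted p under 0.05.

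**Figure D5:**
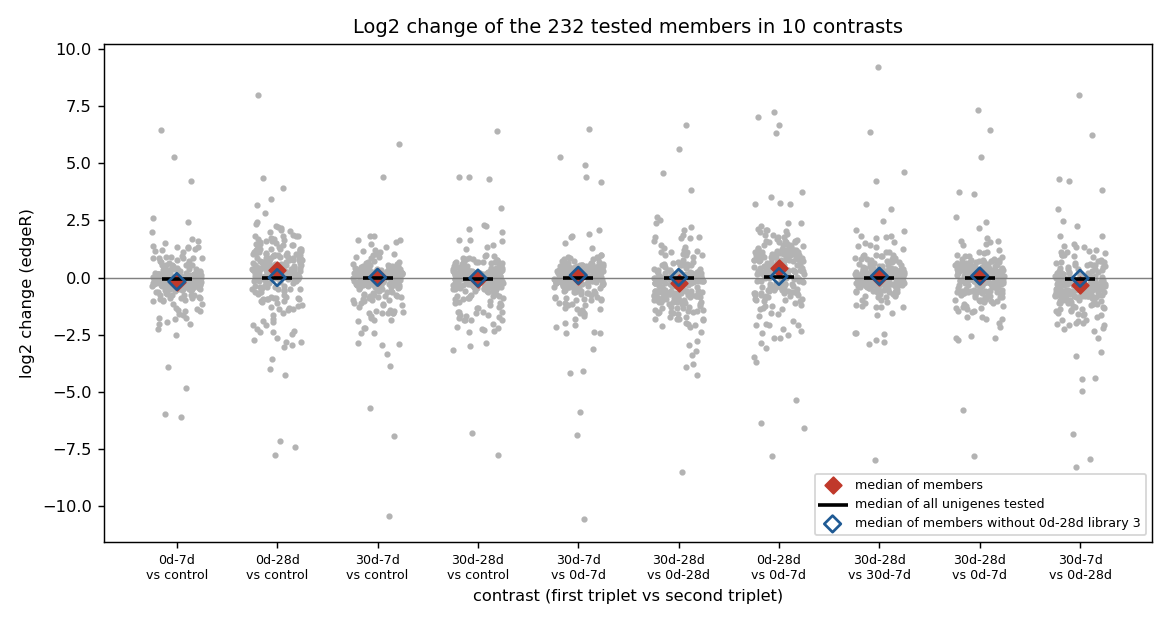
Log2 change by edgeR of the 232 tested members (grey points) in the 10 contrasts, with the median of the members (red), of all unigenes tested (black bar) and of the members without 0d-28d library 3 (open blue). The red median was 0.42 in 0d-28d against 0d-7d, and the open one 0.05.

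Some members with a low unadjusted p did not rest on 0d-28d library 3, and they were chosen for that p. USP2 (contig_68800), a deubiquitinase of 3.71 FPKM, had 1.20, 1.56 and 0.742 CPM in control, 2.78, 4.61 and 2.59 for 0d-7d, 0.931, 0.363 and 1.41 in 0d-28d, 2.82, 1.55 and 5.27 for 30d-7d, and 3.30, 8.27 and 5.27 in 30d-28d. All 30d-28d libraries lay above all of control and of 0d-28d. The log2 difference was 2.26 (SE 0.618, edgeR adjusted p = 1) against control and 2.64 (SE 0.632, edgeR adjusted p = 0.775) against 0d-28d.

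UBR2 (contig_6073), a ligase that reads the first amino acid of its targets, had 42.4, 48.1 and 35.6 CPM in 0d-7d and 79.2, 175 and 95.1 CPM in 0d-28d. The triplets did not overlap, library 2 was highest, and the log2 difference was 1.47 (SE 0.358, edgeR adjusted p = 0.528). A tripartite motif unigene named protein 56 (contig_97146, 4.08 FPKM) had 1.10, 0.892 and 0.742 CPM in control, below all libraries of 0d-7d (2.65, 1.74 and 4.40 CPM) and of 30d-28d (3.10, 3 and 2.25 CPM). The log2 differences were 1.68 (SE 0.479, edgeR adjusted p = 1) and 1.60 (SE 0.478, edgeR adjusted p = 1).

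Ligases of the mind bomb type also appeared. MIB2 (contig_34213) had 1.70, 3.04 and 2.42 CPM in 30d-7d and 8.88, 4.46 and 6.68 CPM in control, without overlap (log2 difference -1.48, SE 0.446, edgeR adjusted p = 1). A mind-bomb contig (contig_110508) had 0.370, 0.878 and 1.65 CPM in 30d-7d and 4.84, 8.78 and 1.89 CPM in 0d-7d, also without overlap (log2 difference -2.41, SE 0.771, edgeR adjusted p = 1). A mib1 contig (contig_10059) had 4.20, 3.99 and 0.559 CPM in 0d-7d and at most 0.323 CPM in control (log2 difference 4.22, SE 1.75, edgeR adjusted p = 1), and libraries of 30d-28d held both 0 and 6.36 CPM. A HERC1-like ligase (contig_139559) had 1.85, 1.89 and 2.14 CPM in 30d-7d and 5.01, 26.8 and 12.6 CPM in control (log2 difference -2.91, SE 0.903, edgeR adjusted p = 1). For contig_23644, a putative ubiquitin ligase, 30d-28d had 24.8, 31.0 and 31.9 CPM and 0d-7d 17.0, 21.4 and 8.04 CPM (log2 difference 0.92, SE 0.360, edgeR adjusted p = 0.885).

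Other tools were run on the same unigenes. limma on log2(FPKM + 1) called 0 members in the 11 tests, where 0.00243% of all tests over unigenes were called. DESeq2, which can leave the adjusted p of a feature undefined, called 4 of 208 members in a likelihood ratio test over the 5 triplets, against 1.15% of all unigenes. By DESeq2 these were USP2 (contig_68800, adjusted p = 0.0116), ubiquitinyl hydrolase 1 (contig_53148, adjusted p = 0.0128), UBR2 (contig_6073, adjusted p = 0.0275) and USP48 (contig_71299, adjusted p = 0.0481). DESeq2 was not run without 0d-28d library 3, where USP48 had 34.2 CPM. contig_53148 had 0.129, 4.63 and 20.8 CPM in control, 10.7, 0 and 1.96 CPM in 0d-7d and at most 0.135 CPM in the other 9 libraries.

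By pair, DESeq2 called 2 members for 0d-28d against control (1.07% of all unigenes), 1 in 30d-7d against control (0.353%), 1 for 30d-28d against control (0.464%) and 0 in 0d-7d against control (0.389%). It called 1 for 30d-7d against 0d-7d (0.339%), 1 in 30d-28d against 0d-28d (0.698%), 2 for 0d-28d against 0d-7d (1.47%), 1 in 30d-28d against 30d-7d (0.307%), 0 for 30d-28d against 0d-7d (0.462%) and 1 in 30d-7d against 0d-28d (0.579%). The calls fell on 7 members. Besides those named, they were contig_83136, a DCN protein with 3.26 to 3.97 CPM in control and 5.38, 8.14 and 9.58 CPM in 0d-28d, contig_10059, and contig_10585, a ubiquitinyl hydrolase. The last had no read in 9 of the 15 libraries, among them all 3 of 30d-7d, and 28.8 CPM in control library 1.

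Genes that work beside the system, taken by name and not members, showed the same library and no call. The SUMO and NEDD8 enzymes had 12 tested unigenes, of which 9 were highest in 0d-28d library 3, where 13.8% of all tested unigenes were. The SUMO-conjugating enzyme contig_12223 had 74.4 CPM there and 21.1 to 44.3 CPM elsewhere. Of 7 tested unigenes for proteins that shuttle or extract marked proteins, 6 were highest there. Derlin (contig_55534), a channel part for proteins that leave the endoplasmic reticulum, had 162 CPM there and 33.1 to 71.4 CPM elsewhere. Among 43 tested ligase parts, 18 were highest there. SKP1, the adaptor that joins F-box proteins to cullins, differed between its contigs, with 55.9 CPM for contig_5323 (84.7 to 192 CPM elsewhere) and 574 CPM for contig_874 (126 to 218 CPM elsewhere). In the edgeR F test 0 unigenes of these 3 lists passed the threshold. At an unadjusted p under 0.05 there were 0 of 12, 3 of 7 and 3 of 43, against 6.07% of all unigenes.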

How the data were processed

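RNA-seq libraries of whole-body sections of *Eisenia fetida* were analysed from 1 deposited table. Per the file headers, each library has a column of raw read counts and a column of FPKM (a level per unigene length and depth), both made by the authors. Which assembler, aligner and counter they used is not given in the sources used here. The unaltered counts went into edgeR 4.0.16 (R 4.3.3), with filterByExpr (minimum count 10, minimum total 15), TMM scaling and 1 quasi-likelihood fit of 5 triplets over 15 libraries, two-sided, with Benjamini-Hochberg adjustment over all 101090 unigenes tested and a threshold of 0.05. CPM is the usual scaled count, taken over the reads of tested unigenes after TMM scaling, and SE is the log2 change divided by the square root of F. Depth was 13182058 to 28022746 reads, and a p-value reflects nothing beyond the variation among the libraries of a triplet, which may be technical. limma 3.58.1 on log2(FPKM + 1) and on log2(FPKM + 0.1), DESeq2 1.42.0, other scaling, no filter, counts summed by protein match, a fit on 6 libraries, a replicate block and leaving out each library were alternatives. The code was tested on simulated data set to a narrower spread between libraries than these data. Their common biological coefficient of variation, a measure of that spread, was 0.923. The simulation therefore does not show what changes could be detected here.

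The members and lists were chosen with earlier results of these data known, and the patterns that assign roles were completed after the names were read. The marker pattern for sperm left out spermidine and spermine. Members named are the 3 most abundant of each role, the 20S core, the 2 with the lowest unadjusted p in each contrast among members reaching a mean of 5 FPKM in the higher triplet, and the 4 with the widest range. The most abundant unigene of each core subunit could not be chosen, because most names carry no subunit number, so all 16 tested core unigenes were described. Members called by DESeq2 alone, the steadiest member and a few others were named after their values were seen. One member is not reported here.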

Additional observations from a re-analysis of the deposited data

How the results depend on the processing

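Of 943 comparisons of a result with an alternative, 919 were counted as the same, 20 as moved, 3 as stronger and 1 as reversed. A count of members called was the same if equal, and a median if it shifted by less than 0.19 log2, whatever its sign. A named member was the same if its sign held and it was not newly called, so its size could change widely. The log2 change of contig_135351 in 0d-28d against control was counted as the same at 0.14, against 3.44 over all libraries. The core sum in 0d-28d library 3 was the same if its fold shifted by less than 0.18. Of 24 fits only DESeq2 called members. DESeq2 called 4 across the 5 triplets, 2 in 0d-28d against control, 1 in 30d-7d against control, 1 in 30d-28d against control, 1 in 30d-7d against 0d-7d, 1 in 30d-28d against 0d-28d, 2 in 0d-28d against 0d-7d, 1 in 30d-28d against 30d-7d and 1 in 30d-7d against 0d-28d. The median log2 change of the members was 0.14 by limma with a pseudocount of 1 in 0d-28d against control and 0.16 in 0d-28d against 0d-7d. It was -0.07 in 30d-7d against 0d-28d with either pseudocount, and 0.00 in 30d-28d against 0d-28d with no filter on low counts. The cause was not tested. Leaving out each library in turn called 0 members in each of the 11 tests. The medians then ran from -0.27 to -0.06 in 0d-7d, 0.00 to 0.34 in 0d-28d, -0.03 to 0.05 in 30d-7d and -0.06 to 0.04 in 30d-28d, each against control. They ran from 0.06 to 0.16 in 30d-7d and 0.05 to 0.60 in 0d-28d against 0d-7d, -0.24 to 0.01 in 30d-28d and -0.38 to -0.03 in 30d-7d against 0d-28d, 0.00 to 0.10 in 30d-28d against 30d-7d and 0.04 to 0.19 in 30d-28d against 0d-7d. The log2 change of TRIM45 contig_202366 in 0d-28d against control, 7.99 over all libraries, ran from -0.23 without 0d-28d library 3 to 9.35. The 20S core sum in 0d-28d library 3 was 3.64 times the median of the others in CPM, and in alternatives chosen after seeing the data 2.92 times as a share of reads and 3.18 times in summed FPKM.

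With the library number as a replicate block, edgeR called 0 members in the 11 tests and 4 had an unadjusted p under 0.05 in the F test. Same-numbered libraries deviated together at r from -0.33 to 0.32 over 30 pairs, with 3 pairs over 0.1, so the numbers were not taken to pair the samples. Untested members had a median of 19.5 reads over all libraries, which limits what can be said of them.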
